A study of Mus musculus with 8 samples.

Results

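The Id genes, Id1 to Id4, were followed across 8 RNA-seq libraries of mouse jejunal crypts, as the rows of the expression table that carry these 4 symbols. They are 4 of the 23951 gene symbols in the table, and all 4 passed the filter on low values (2 or more libraries with an FPKM of 1 or more), which kept 12084 genes. FPKM is the number of sequenced fragments scaled by transcript length and library size, so levels of different genes can be set side by side. The table has 2 libraries labelled CDX2KO_BRAF (Cdx2 f/f, BRAF-V600E f/+, Villin-CreER(T2)), 3 labelled SMAD4KO_BRAF (Smad4 f/f, BRAF-V600E f/+, Villin-CreER(T2)) and 3 labelled BRAF (BRAF-V600E f/+, Villin-CreER(T2)). Every group, BRAF included, carries 1 conditional allele of the activated kinase BRAF-V600E and a tamoxifen-dependent Cre recombinase driven by the Villin promoter, which acts in the intestinal epithelium and not in the cells beneath it. Mice received tamoxifen on 4 consecutive days, and the jejunal epithelium was taken 1 day later, released with 3 mM EDTA and passed through a 70 micron filter. The ages of the mice and whether each library is 1 mouse are not given in the sources used here, so the spread behind each p-value is that among libraries and may be technical.

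Id proteins are helix-loop-helix proteins without the basic region that contacts DNA. They pair with E proteins, the broadly expressed partners of tissue-specific basic helix-loop-helix factors, and keep them from binding DNA, which in many tissues holds back differentiation. Their genes are widely used as readouts of BMP signalling: a BMP ligand brings together type I and type II receptors, the receptors phosphorylate Smad1, Smad5 and Smad9, and these enter the nucleus with Smad4, the partner they share with the TGF-beta branch, and bind upstream of Id genes. In the intestine, BMP signalling is high in the villus and is held low around the crypt base by antagonists secreted from the mesenchyme.

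Sequences upstream of the start sites are shown because the calls below differ between the Id genes and because the Smad-bound elements known for this family are GC-rich. RefSeq (build GRCm38.p6) gave 250 bases before the start for 3 of the 4 genes, Id2 at chr12:25096093-25096342 on the minus strand, Id3 at chr4:136143572-136143821 on the plus strand and Id4 at chr13:48260866-48261115 on the plus strand; Id1 is named only. They are written 5′ to 3′, and capitals mark the motifs searched for on both strands: GGCGCC, a core of BMP-responsive Smad elements, GTCTAGAC, the palindromic Smad-binding element, and TTTATG or its complement CATAAA, a core of Cdx2 sites that can overlap a TATA-like element.
Id2: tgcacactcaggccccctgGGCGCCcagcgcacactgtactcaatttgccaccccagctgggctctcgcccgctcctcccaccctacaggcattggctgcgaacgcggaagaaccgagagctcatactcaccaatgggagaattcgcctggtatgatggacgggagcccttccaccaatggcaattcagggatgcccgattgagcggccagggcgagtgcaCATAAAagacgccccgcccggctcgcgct
Id3: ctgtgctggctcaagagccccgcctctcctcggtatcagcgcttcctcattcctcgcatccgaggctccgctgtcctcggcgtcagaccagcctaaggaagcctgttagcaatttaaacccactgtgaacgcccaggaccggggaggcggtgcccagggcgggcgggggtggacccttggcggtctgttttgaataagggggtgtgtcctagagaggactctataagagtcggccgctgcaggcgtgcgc
Id4: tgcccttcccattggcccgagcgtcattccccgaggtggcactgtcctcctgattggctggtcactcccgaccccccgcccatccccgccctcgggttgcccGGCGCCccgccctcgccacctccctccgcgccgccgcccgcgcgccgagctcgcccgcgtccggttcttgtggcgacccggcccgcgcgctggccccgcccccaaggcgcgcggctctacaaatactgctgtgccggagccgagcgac
The GGCGCC core stands once in the Id2 window, 231 bases before the start, once in the Id4 window, 148 bases before it, and not in these 250 bases of Id3. It is found in 9.59% of 32851 RefSeq windows of this length. The palindrome GTCTAGAC, in 0.167% of windows, is in none of the 3. CATAAA stands once, 29 bases before the Id2 start, in the place where a TATA element usually lies, and 10.8% of windows hold it on either strand. The 3 windows are rich in G and C, at 62.8%, 62.8% and 75.6% for Id2, Id3 and Id4, where the median window has 52.4%. A match of letters is a description and was not set against binding data. Elements further upstream than 250 bases were not searched, and Id1 has no window. The matches therefore cannot bear on why the calls differ between the Id genes.

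The libraries carry their labels to differing degrees. Smad4 had an FPKM of 10.7, 8.38 and 7.66 in SMAD4KO_BRAF libraries 0 to 2, against 42.5, 47.0 and 42.4 in BRAF, a fall of log2 -2.19 (limma, adjusted p = 0.00163). Cdx2, the homeobox factor of intestinal identity, stood at 155 and 121 in the libraries labelled CDX2KO_BRAF and at 64.2, 82.6 and 80.1 in BRAF (log2 0.86, adjusted p = 0.0213), which goes against the label. A whole-gene FPKM does not separate the floxed part from the rest of the transcript, so these libraries are called by their label throughout. The Cdx2 difference had an adjusted p of 0.137 and 0.0561 without CDX2KO_BRAF library 0 or 1, and of 0.0508 and 0.0511 without BRAF library 0 or 2. The epithelial markers Epcam (540 to 992) and Vil1 (346 to 862) were high in all 8 libraries, the crypt marker Olfm4 was at 144 to 409, and the villus enterocyte gene Fabp2, at 492 to 3304, was present as well. In such bulk samples fewer cells of a type and less RNA per cell cannot be told apart. Of 11 markers of endothelium, a cell type rich in Id1 and Id3, 9 stayed below 1 FPKM in every library and Emcn was listed at 0 in all 8. By Y-linked genes, SMAD4KO_BRAF library 0 and BRAF library 0 came from male mice and the other 6 from female mice. Depth in reads is unknown; relative to BRAF library 0, the steps between low values put the libraries at 0.71 to 1.46.

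Id1 was the most abundant Id gene in every library. Its FPKM was 312 and 235 in the libraries labelled CDX2KO_BRAF, 41.9, 19.3 and 29.6 in SMAD4KO_BRAF, and 60.8, 41.9 and 50.7 in BRAF. Both libraries labelled CDX2KO_BRAF lay far above the other 6, while the highest SMAD4KO_BRAF library equalled the lowest BRAF library to 3 digits. The group means were 274 ± 54.8 (SD, n = 2), 30.3 ± 11.3 (n = 3) and 51.1 ± 9.45 (n = 3) in the same order.

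Id2, known in the gut also as a factor that innate and intraepithelial lymphocytes need, ran lower. It had an FPKM of 75.4 and 50.1 in the libraries labelled CDX2KO_BRAF, 3.85, 9.20 and 13.0 in SMAD4KO_BRAF, and 7.75, 20.6 and 9.33 in BRAF. The SMAD4KO_BRAF and BRAF libraries overlapped over most of their range, and the libraries labelled CDX2KO_BRAF stood apart from both. The means were 62.8 ± 17.9 (n = 2), 8.70 ± 4.61 (n = 3) and 12.6 ± 7.01 (n = 3).

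Id3 separated all 3 groups. Its FPKM was 108 and 83.8 in the libraries labelled CDX2KO_BRAF, 6.74, 6.95 and 9.97 in SMAD4KO_BRAF, and 39.3, 36.1 and 28.4 in BRAF. No library of one group reached the range of another. Of all tested genes, 10.4% were lower in each SMAD4KO_BRAF library than in each BRAF library. In both libraries labelled CDX2KO_BRAF, 25.7% were higher than in each BRAF library. How many genes separate all 3 groups was not counted. The means were 96.0 ± 17.3 (n = 2), 7.88 ± 1.81 (n = 3) and 34.6 ± 5.60 (n = 3).

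Id4, which in other tissues marks stem or progenitor cells such as those of the mouse testis, was the rarest Id message in 7 of the 8 libraries. It stood at 6.26 and 1.37 in the libraries labelled CDX2KO_BRAF, 4.82, 1.92 and 4.78 in SMAD4KO_BRAF, and 3.67, 4.06 and 2.72 in BRAF. The highest and the lowest value of all 8 came from the same group, and all groups overlapped. The means were 3.82 ± 3.46 (n = 2), 3.84 ± 1.66 (n = 3) and 3.49 ± 0.691 (n = 3), so they differed by less than the spread between libraries.

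**Figure D1:**
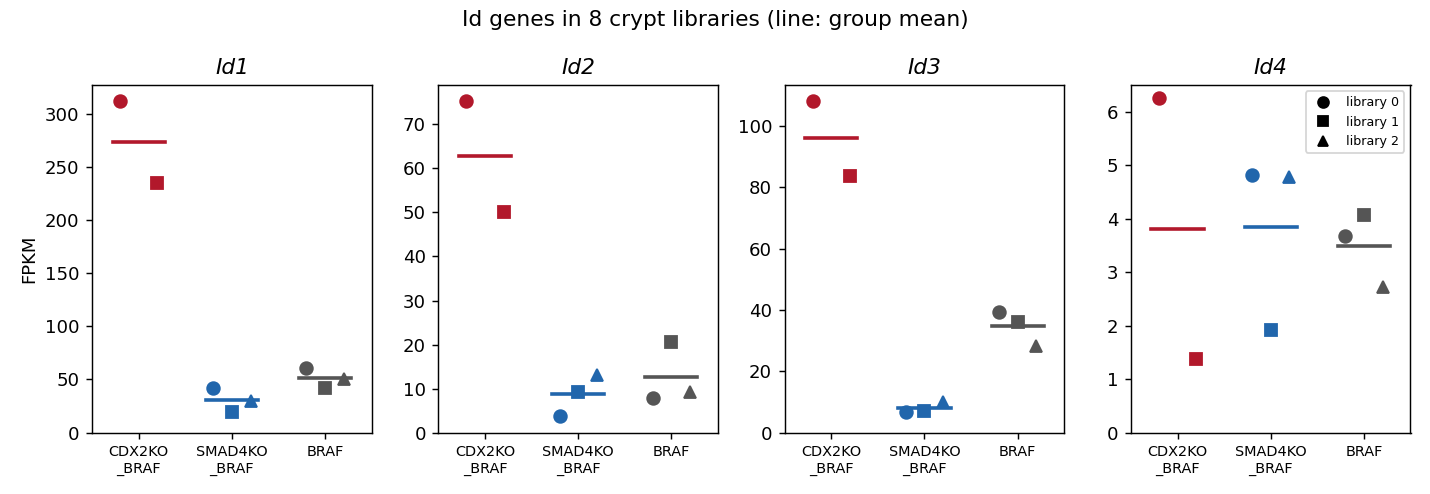
FPKM (linear axis from 0, a scale of its own for each gene) of the Id genes in each library, with the libraries labelled CDX2KO_BRAF left, SMAD4KO_BRAF in the middle and BRAF right; symbols give the library number and lines the group mean. Id1, Id2 and Id3 are highest in the libraries labelled CDX2KO_BRAF, Id3 alone separates all 3 groups (6.74 to 9.97 in SMAD4KO_BRAF, 28.4 to 39.3 in BRAF), and Id4 overlaps throughout.

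Changes are given as differences of log2(FPKM + 1), a scale on which changes of weakly expressed genes look smaller, ± the standard error, from one limma model of all 3 groups, with p adjusted by the Benjamini-Hochberg method over 12084 genes and a threshold of 0.05. Both contrasts with BRAF use the same 3 BRAF libraries, so they are not independent of each other.

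In SMAD4KO_BRAF, 1 of the 4 Id genes fell and none rose by limma's adjusted p, where 0.0497% of all tested genes fell and 0.0248% rose. At an unadjusted p under 0.05 there were 2, Id1 and Id3, where 15.1% of all tested genes were. The gene that fell was Id3, whose mean was 0.228 of that in BRAF, a difference of -2.01 ± 0.19 (95% interval -2.46 to -1.56, limma's adjusted p = 0.0204). Only 5 tested genes had a smaller p, and 68 had a more negative difference. Id3 was lower in each SMAD4KO_BRAF library than in each BRAF library, as were 10.4% of all genes. The direction stayed under every alternative run, between -2.17 and -1.71, but the adjusted p was 0.0638 without SMAD4KO_BRAF library 0, 0.156 without SMAD4KO_BRAF library 1, 0.0922 without BRAF library 0 and 0.0742 with no filter on low values.

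Id1 in SMAD4KO_BRAF was at -0.79 ± 0.28 against BRAF (95% interval -1.45 to -0.12, limma's adjusted p = 0.289) and did not pass. It was at -0.51 without SMAD4KO_BRAF library 1, and passed with libraries weighted by their quality (-0.86, adjusted p = 0.0488). With those weights 1069 of the 12084 genes passed in this comparison, beside 9 in the main fit. Over all alternatives, the adjusted p of Id1 ranged up to 0.634. Among female mice it had an FPKM of 19.3 and 29.6 in SMAD4KO_BRAF, against 41.9 and 50.7 in BRAF, and in the male pair 41.9 in SMAD4KO_BRAF against 60.8 in BRAF. A single library of each group, as in the male pair, cannot overlap, and the female mice are few, so the split by sex decides nothing. With sex as a term limma's adjusted p was 0.117. Id3 within the female mice was at 6.95 and 9.97 in SMAD4KO_BRAF and at 36.1 and 28.4 in BRAF, and in the male pair at 6.74 in SMAD4KO_BRAF and 39.3 in BRAF.

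Id2 in SMAD4KO_BRAF was at -0.50 ± 0.47 against BRAF (95% interval -1.61 to 0.61, limma's adjusted p = 0.621). With library weights it was at 0.06. Id4 was at 0.05 ± 0.45 (-0.995 to 1.10, adjusted p = 0.969), and its sign turned under 4 of 18 alternatives. The median of the 4 Id genes was -0.64, where the median of all tested genes was -0.01. The intervals of Id2 and Id4 span both a fall and a rise, so neither a change nor its absence was resolved at this spread.

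In the libraries labelled CDX2KO_BRAF, 3 of the 4 Id genes rose against BRAF and none fell, where 6.89% of all tested genes rose and 7.21% fell. Id1 rose by 2.40 ± 0.32 (95% interval 1.65 to 3.14, limma's adjusted p = 0.00425), with a ratio of mean FPKM of 5.35. It passed under every alternative run, with an adjusted p of at most 0.0366, and 145 of the tested genes had a larger difference. Id2 rose by 2.32 ± 0.53 (1.08 to 3.56, adjusted p = 0.0296), a ratio of 4.996. That call is fragile: the adjusted p was 0.170 and 0.103 without CDX2KO_BRAF library 0 or 1, 0.0745 and 0.0855 without BRAF library 0 or 2, and 0.0576 with no filter, with the difference between 1.98 and 2.72 throughout. Id3 rose by 1.45 ± 0.21 (0.95 to 1.95, adjusted p = 0.00612), a ratio of 2.78, and had an adjusted p of 0.0508 without CDX2KO_BRAF library 0. Id4 was at -0.10 ± 0.50 (-1.27 to 1.07, adjusted p = 0.912) and at 0.71 without CDX2KO_BRAF library 1. Both libraries labelled CDX2KO_BRAF lay above all BRAF libraries for Id1, Id2 and Id3, as they did for 25.7% of all genes. The median of the 4 was 1.88, beside 0.02 for all tested genes.

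Set directly against SMAD4KO_BRAF, the libraries labelled CDX2KO_BRAF had higher Id1, Id2 and Id3, where 6.6% of all tested genes rose and 5.01% fell. Id3 differed by 3.46 ± 0.21 (limma's adjusted p = 0.000295), a ratio of mean FPKM of 12.2. Id1 differed by 3.19 ± 0.32 (adjusted p = 0.00187), a ratio of 9.04, and Id2 by 2.82 ± 0.53 (adjusted p = 0.0170), a ratio of 7.22. Of the 3, Id2 alone lost the call in any alternative, at an adjusted p of 0.117 and 0.0814 without CDX2KO_BRAF library 0 or 1. Id4 was at -0.15 ± 0.50 (adjusted p = 0.870). Only 65 tested genes had a larger difference than Id3, and 84 and 117 a larger one than Id1 and Id2.

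**Figure D2:**
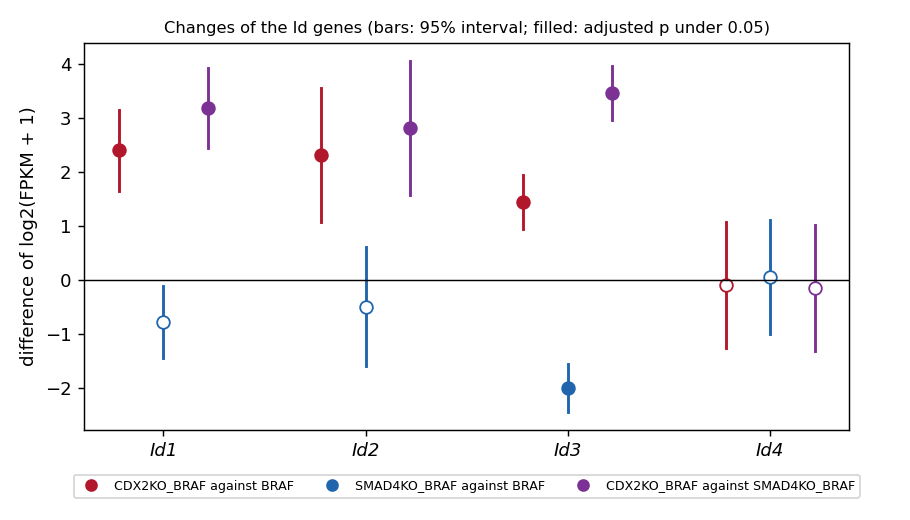
Difference of log2(FPKM + 1) of each Id gene in the 3 comparisons (colours), with 95% intervals; filled points have an adjusted p under 0.05. Id3 is the only one of the 4 past the threshold in SMAD4KO_BRAF against BRAF (-2.01), Id1, Id2 and Id3 are past it in both comparisons of the libraries labelled CDX2KO_BRAF, and all 3 intervals of Id4 cross 0.

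The summed FPKM of the 4 genes was 502 and 370 in the libraries labelled CDX2KO_BRAF, 57.3, 37.4 and 57.3 in SMAD4KO_BRAF, and 111, 103 and 91.1 in BRAF. The sums kept the 3 groups apart, and so did the shares of Id3 and Id4 in them, but not those of Id1 and Id2. Id3 made up 21.6% and 22.6% of the sum in the libraries labelled CDX2KO_BRAF, 11.8%, 18.6% and 17.4% in SMAD4KO_BRAF, and 35.2%, 35.2% and 31.1% in BRAF. Its share was lower in both other groups than in BRAF, although its level moved in opposite directions in them.

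The Id3:Id1 ratio of FPKM was 0.347 and 0.357 in the libraries labelled CDX2KO_BRAF, below every BRAF library. It was 0.161, 0.360 and 0.337 in SMAD4KO_BRAF, against 0.646, 0.863 and 0.560 in BRAF. The difference of mean log2 ratios was -1.33 (exact two-sided permutation test, p = 0.1, the smallest that 3 against 3 libraries allow), and no SMAD4KO_BRAF ratio reached the BRAF range. By these values, Id3 was lower relative to Id1 in each SMAD4KO_BRAF library than in each BRAF library. For Id3:Id2 it was 1.75, 0.755 and 0.765 in SMAD4KO_BRAF, against 5.06, 1.75 and 3.04 in BRAF, a log2 difference of -1.58 (exact p = 0.1), with the closest pair at nearly the same ratio.

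**Figure D3:**
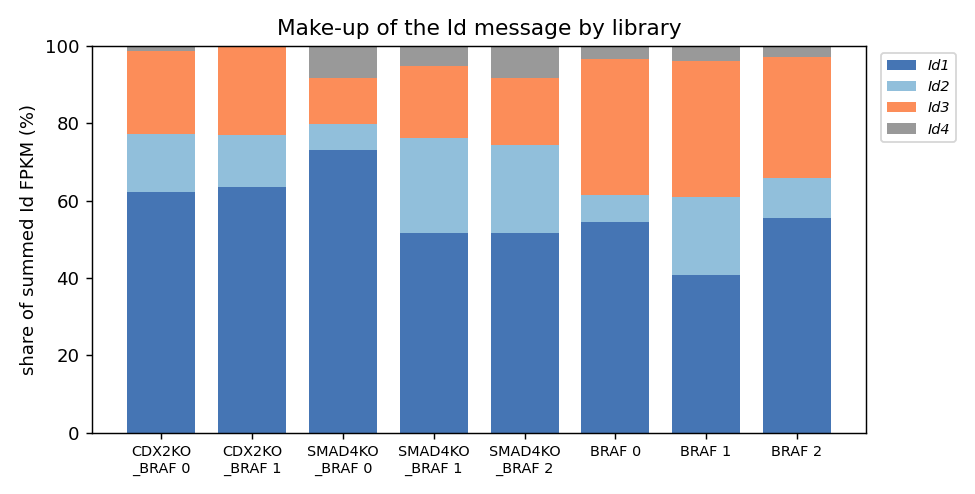
Share (%) of each Id gene in the summed FPKM of the 4 in each library, with the libraries labelled CDX2KO_BRAF left, then SMAD4KO_BRAF, then BRAF. Id3 holds 11.8% to 22.6% in the first 5 libraries and 31.1% to 35.2% in BRAF, and Id4 is largest in SMAD4KO_BRAF, at 5.14% to 8.40%, where the sum is lowest.

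By level, the order was Id1, Id3, Id2, Id4 in both libraries labelled CDX2KO_BRAF and in all 3 BRAF libraries. In SMAD4KO_BRAF libraries 1 and 2, Id2 stood above Id3 (9.20 against 6.95 and 13.0 against 9.97), and in library 0 Id3 stood above Id4 and Id4 above Id2 (6.74, 4.82 and 3.85). In SMAD4KO_BRAF, Id2 and Id3 did not differ beyond their spread, and Id2 and Id4 overlapped. Against all tested genes, Id1 lay above 97.6% to 98.2% of them in the libraries labelled CDX2KO_BRAF, above 64.3% to 82.2% in SMAD4KO_BRAF and above 82.9% to 86.1% in BRAF. Id3 lay above 91.1% to 93.3%, 34.2% to 44.3% and 72.8% to 80.0% in those groups. The highest library exceeded the lowest 16.2-fold for Id1, 19.6-fold for Id2, 16.1-fold for Id3 and 4.56-fold for Id4.

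Likeness of pattern was measured as the root mean square difference of log2(FPKM + 1), centred on each gene's mean, over the 8 libraries. Among the Id genes, Id1 and Id3 were closest at 0.65, Id1 and Id2 were at 0.78 and Id2 and Id3 at 0.81, while Id4 was at 1.36 or more from each. Among genes with a mean FPKM of at least 5, Bst2, which encodes the membrane protein tetherin, was closest to Id1 at 0.19, with an FPKM of 269 and 126 in the libraries labelled CDX2KO_BRAF, 29.7, 13.9 and 19.1 in SMAD4KO_BRAF, and 43.5, 27.4 and 29.9 in BRAF. Spats2l and Sp100 followed at 0.34 and 0.36. Bst2 was nearer to Id1 than any other Id gene was.

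Klf4, a transcription factor of post-mitotic epithelium, was closest to Id3 at 0.48. It stood at 90.7 and 104 in the libraries labelled CDX2KO_BRAF, 16.9, 14.9 and 11.4 in SMAD4KO_BRAF, and 49.8, 34.8 and 28.8 in BRAF, and like Id3 it kept the 3 groups apart. Oas3 and Oasl2, of the oligoadenylate synthetase family, followed at 0.52 and 0.57. Ifi27l2a (0.48), Tgm2, which encodes a transglutaminase (0.54), and the kinase gene Nek7 (0.55) were closest to Id2, and Naip7 (0.21), C630043F03Rik (0.32) and Cox7c (0.32) to Id4. These are descriptions over 8 libraries that share their group differences.

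The members of the BMP pathway upstream of the Id genes, in order of their roles, did not follow one direction. Of 10 BMP ligands, 5 passed the filter. None of them was called by limma in SMAD4KO_BRAF against BRAF, where their median was -0.84. There 3 had an unadjusted p under 0.05, as had 15.1% of all tested genes. In the libraries labelled CDX2KO_BRAF against BRAF their median was -1.35, but they did not move one way. Bmp2 and Bmp7 were at 1.04 and 0.68, and Bmp8a and Bmp8b at -1.35 and -2.44 (limma's adjusted p = 0.228, 0.0898, 0.124 and 0.0951). There 4 had an unadjusted p under 0.05, as had 28.8% of all tested genes. By adjusted p 1 fell, as did 7.21% of all tested genes. That one was Bmp3, which encodes a ligand that opposes other BMPs. It had an FPKM of 0.267 and 0.293 in the libraries labelled CDX2KO_BRAF, 30.5, 27.6 and 26.7 in SMAD4KO_BRAF, and 18.5, 8.96 and 22.2 in BRAF. Its fall of -3.69 against BRAF (limma's adjusted p = 0.000993) and of -4.51 against SMAD4KO_BRAF (adjusted p = 0.000596) passed under all alternatives run. In SMAD4KO_BRAF against BRAF, Bmp8a was at -1.45 (limma's adjusted p = 0.262), Bmp8b at -1.32 and Bmp2 at -0.84. On the other side, Bmp3 was at 0.82 (adjusted p = 0.281) and Bmp7 at 0.63 (adjusted p = 0.268).

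Of 7 receptor genes, 5 passed the filter, with medians of 0.07 in the libraries labelled CDX2KO_BRAF and 0.05 in SMAD4KO_BRAF, each against BRAF. Bmpr1a, which encodes the main epithelial type I receptor, had an FPKM of 68.8 and 71.7 in the libraries labelled CDX2KO_BRAF, 39.2, 42.2 and 36.2 in SMAD4KO_BRAF, and 51.4, 38.7 and 44.7 in BRAF. It rose by 0.64 against BRAF (limma's adjusted p = 0.0246) and by 0.83 against SMAD4KO_BRAF (adjusted p = 0.0120). The call against BRAF was lost under 6 of 19 alternatives, with an adjusted p of 0.106 and 0.138 without CDX2KO_BRAF library 0 or 1 and of 0.0504 and 0.0707 without BRAF library 1 or 2, and that against SMAD4KO_BRAF under 3, at 0.0669 and 0.0885 without CDX2KO_BRAF library 0 or 1. No receptor was called in SMAD4KO_BRAF, and 1 had an unadjusted p under 0.05, as had 15.1% of all tested genes. There the type II receptor gene Acvr2a was at -0.38 (limma's adjusted p = 0.234, passing with library weights at 0.0463). With those weights 1069 of the 12084 tested genes passed. Of 10 secreted antagonists, 8 did not pass the filter and none of the other 2 was called in any comparison. Nbl1 had an unadjusted p under 0.05 in the libraries labelled CDX2KO_BRAF against BRAF, as had 28.8% of all tested genes. Of the 8, only Chrd reached an FPKM of 1, in 1 library, and it was not tested. It stood at 0.873 and 3.39 in the libraries labelled CDX2KO_BRAF, 0.279 to 0.529 in SMAD4KO_BRAF and 0.126 to 0.197 in BRAF.

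Among 6 Smad transducer genes, 5 passed the filter and only Smad4 was called, with a fall in SMAD4KO_BRAF. Smad3, of the TGF-beta branch, was at 0.60 in the libraries labelled CDX2KO_BRAF against BRAF (limma's adjusted p = 0.0502, under the threshold with 6 of 19 alternatives). Smad1 and Smad5, the BMP branch, were not called in any comparison, and Smad4 was at -0.22 (adjusted p = 0.381) in the libraries labelled CDX2KO_BRAF.

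No other BMP target was called as risen in the libraries labelled CDX2KO_BRAF. Of 8 such genes only Smad6 and Smad7, inhibitory Smads that limit the signal, passed the filter. Smad7 had an FPKM of 3.51 and 2.84 in the libraries labelled CDX2KO_BRAF, 4.55, 4.32 and 4.86 in SMAD4KO_BRAF, and 8.46, 8.57 and 4.99 in BRAF. It fell by 0.97 in the libraries labelled CDX2KO_BRAF against BRAF (limma's adjusted p = 0.0296), a call lost under 7 of 19 alternatives, at 0.0947 and 0.168 without CDX2KO_BRAF library 0 or 1 and 0.0773 and 0.0714 without BRAF library 0 or 1. Smad7 was at -0.55 in SMAD4KO_BRAF against BRAF (adjusted p = 0.289). Smad6 stood at 4.39 and 0.813 in the libraries labelled CDX2KO_BRAF, 0.114, 0.216 and 0.399 in SMAD4KO_BRAF, and 0.652, 1.09 and 0.825 in BRAF, and was called in no comparison. It was at 0.76 in the libraries labelled CDX2KO_BRAF against BRAF (limma's adjusted p = 0.284), a value that 1 library decides: it was -0.03 without CDX2KO_BRAF library 0 and 1.55 (adjusted p = 0.0314) without library 1. It was at 1.34 in them against SMAD4KO_BRAF (adjusted p = 0.0836, and 0.0170 without CDX2KO_BRAF library 1) and at -0.58 in SMAD4KO_BRAF against BRAF (adjusted p = 0.475). The 3 SMAD4KO_BRAF libraries were the lowest of the 8 for Smad6, at levels where the log2 scale compresses differences.

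Of 8 TGF-beta targets, which also need Smad4, 5 passed the filter. Tgfbi, which encodes an extracellular matrix protein, had an FPKM of 1.07 and 1.74 in the libraries labelled CDX2KO_BRAF, 21.8, 13.3 and 18.3 in SMAD4KO_BRAF, and 41.5, 30.2 and 77.1 in BRAF. It fell by 4.30 in the libraries labelled CDX2KO_BRAF against BRAF (limma's adjusted p = 0.00103), opposite to Id1 and Id3. Of all tested genes, 7.21% fell there. In SMAD4KO_BRAF Tgfbi was at -1.35 (adjusted p = 0.210, passing with library weights at 0.0373). With those weights 1069 of the 12084 tested genes passed. No TGF-beta target was called in SMAD4KO_BRAF, where the median was 0.16. At an unadjusted p under 0.05 there were 3, where 15.1% of all tested genes were. Against SMAD4KO_BRAF, the libraries labelled CDX2KO_BRAF had lower Tgfbi (-2.95, adjusted p = 0.00489), lower Skil, which encodes a Smad corepressor (-0.83, adjusted p = 0.0350), and higher Itgb6, an integrin gene (1.496, adjusted p = 0.0218). Of all tested genes, 6.6% rose and 5.01% fell in that comparison. The Skil call was lost under 7 of 19 alternatives and the Itgb6 call under 4, in both cases without CDX2KO_BRAF library 0 or 1 and without SMAD4KO_BRAF library 0 or 2, and for Skil also without SMAD4KO_BRAF library 1 or BRAF library 1, with an adjusted p of at most 0.192 and 0.145.

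**Figure D4:**
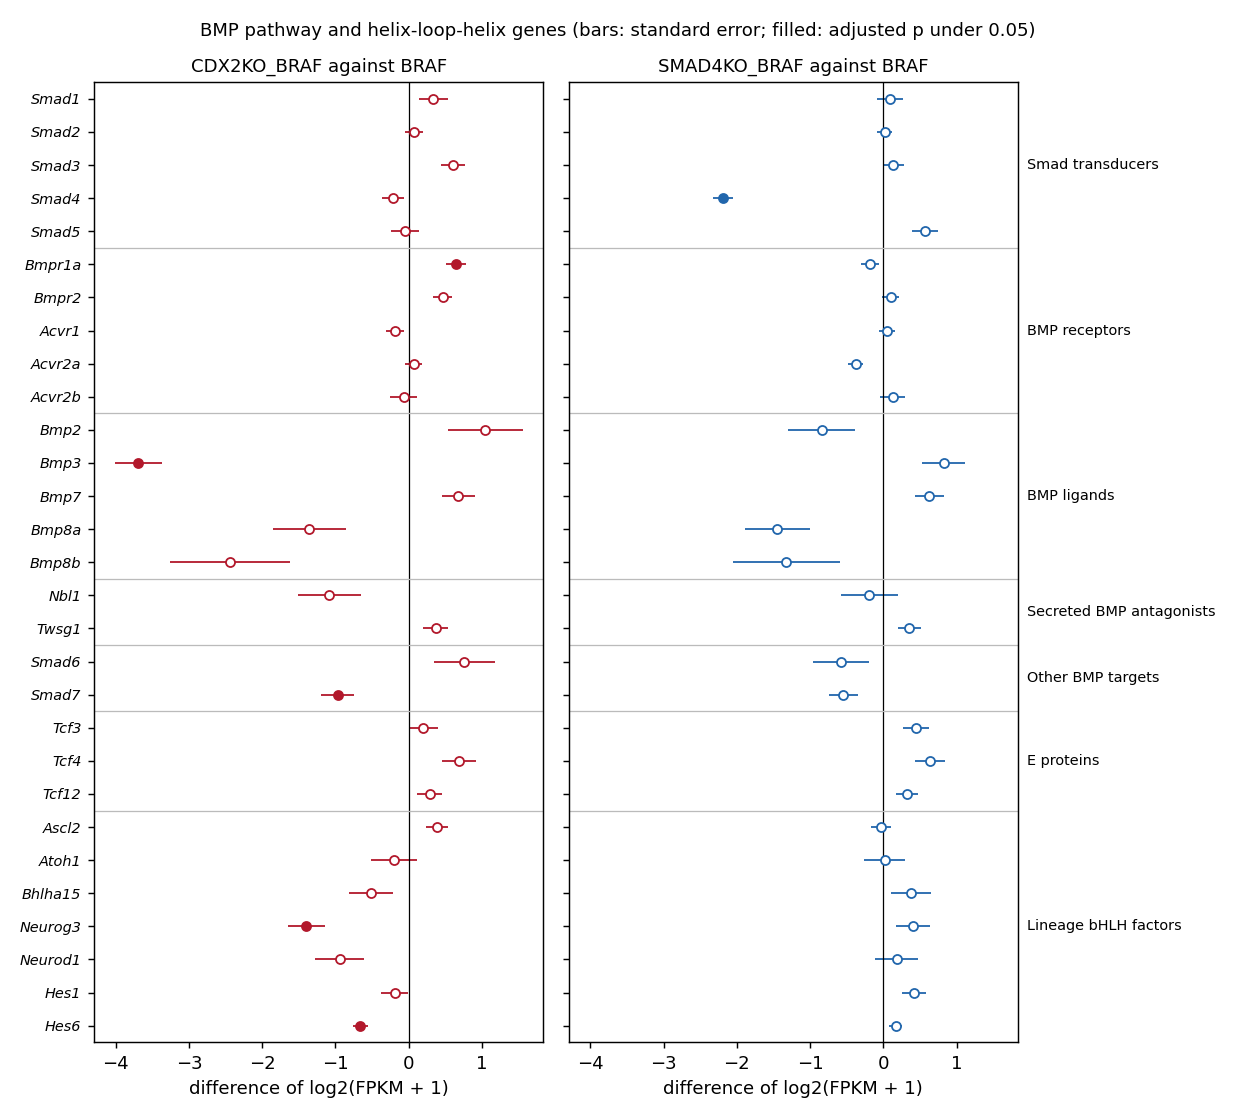
Differences of log2(FPKM + 1) with standard errors for the tested BMP pathway genes and helix-loop-helix partners, in the libraries labelled CDX2KO_BRAF (left) and SMAD4KO_BRAF (right), each against BRAF; filled points have an adjusted p under 0.05. Smad4 is the only filled point on the right (-2.19), and Bmp3 is the lowest on the left (-3.69), with Bmpr1a up and Smad7, Neurog3 and Hes6 down.

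The E protein genes, whose products Id proteins bind, were called in no comparison. All 3 of them, Tcf3, Tcf4 and Tcf12, passed the filter. In SMAD4KO_BRAF against BRAF they were at 0.44, 0.63 and 0.32 (limma's adjusted p = 0.307, 0.276 and 0.363), and in the libraries labelled CDX2KO_BRAF at 0.20, 0.68 and 0.29 (adjusted p = 0.534, 0.0997 and 0.310). At an unadjusted p under 0.05 there was 1 in the libraries labelled CDX2KO_BRAF, and there were 2 in SMAD4KO_BRAF. The shares of all tested genes were 28.8% and 15.1%. Their medians of 0.44 and 0.29 lie above the -0.01 and 0.02 of all tested genes. With library weights Tcf4 passed in both, at 0.0285 in the libraries labelled CDX2KO_BRAF and 0.0384 in SMAD4KO_BRAF. With those weights 2602 and 1069 of the 12084 tested genes passed in these comparisons. Tcf3 had an FPKM of 23.1 and 22.4 in the libraries labelled CDX2KO_BRAF, 24.3, 25.1 and 32.6 in SMAD4KO_BRAF, and 15.5, 22.9 and 21.5 in BRAF. Summed over the 4 Id genes and the 3 E protein genes, Id message exceeded E protein message in the libraries labelled CDX2KO_BRAF (502 and 370 FPKM against 48.4 and 48.0), and both were of similar size in SMAD4KO_BRAF (57.3, 37.4 and 57.3 against 44.6, 54.4 and 61.5). In BRAF, too, Id message exceeded E protein message in each library (111, 103 and 91.1 against 32.9, 44.5 and 41.6).

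Of 8 lineage bHLH genes of the crypt, 7 passed the filter, and their median was -0.52 in the libraries labelled CDX2KO_BRAF and 0.18 in SMAD4KO_BRAF, each against BRAF. No such gene was called in SMAD4KO_BRAF. There Hes1, a Notch-driven repressor and the only one at an unadjusted p under 0.05, was at 0.41 (limma's adjusted p = 0.307). It passed with library weights at 0.0450, a setting in which 1069 of the 12084 tested genes passed. In the libraries labelled CDX2KO_BRAF, 2 fell, where 7.21% of all tested genes fell. Neurog3, which commits cells to the enteroendocrine lineage, had an FPKM of 0.381 and 0.0372 there, 4.33, 2.09 and 3.43 in SMAD4KO_BRAF, and 1.95, 2.36 and 2.17 in BRAF, a fall of -1.40 against BRAF (limma's adjusted p = 0.0134) and of -1.80 against SMAD4KO_BRAF (adjusted p = 0.00681). Without CDX2KO_BRAF library 1 these had an adjusted p of 0.0999 and 0.0614. Hes6, a Hes1 antagonist, fell by 0.66 against BRAF (adjusted p = 0.00657, and 0.0516 without CDX2KO_BRAF library 0) and by 0.83 against SMAD4KO_BRAF (adjusted p = 0.00360). Of 12 other factors linked to Id proteins, among them Rb1 and Ets family genes, 9 passed the filter and none was called. At an unadjusted p under 0.05 there were 2 in the libraries labelled CDX2KO_BRAF, 1 in SMAD4KO_BRAF and 0 between these. The shares of all tested genes were 28.8%, 15.1% and 28.9%. Rb1, the retinoblastoma gene, whose protein binds Id2, was at -0.71 in the libraries labelled CDX2KO_BRAF (adjusted p = 0.0819) and at -0.51 in SMAD4KO_BRAF (adjusted p = 0.311).

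Id1 and Id3 are also known to answer growth factor signals, so immediate early genes are given beside them. Of 15, 13 passed the filter. In SMAD4KO_BRAF against BRAF all 13 had a negative difference, with a median of -0.67, and none was called, while 5 had an unadjusted p under 0.05, where 15.1% of all tested genes did. Zfp36, Atf3 and Jun were at -0.64, -1.67 and -1.04 (limma's adjusted p = 0.188, 0.179 and 0.247). In the libraries labelled CDX2KO_BRAF against BRAF, 6.89% of all tested genes rose and 7.21% fell. Of the 13 genes, 4 had an unadjusted p under 0.05 there, beside 28.8% of all tested genes. With a median of 0.19 among the 13, Ier3 rose by 0.89 (limma's adjusted p = 0.0435) and Zfp36 fell by 0.68 (adjusted p = 0.0404). Both calls are weak, lost under 10 and 13 of 19 alternatives, with an adjusted p of up to 0.194 and 0.187 without CDX2KO_BRAF library 0; leaving out any other library but BRAF library 0 for Ier3 and BRAF library 2 for Zfp36 also ended them. Against SMAD4KO_BRAF, Atf3 (1.86, adjusted p = 0.0316) and Ier3 (1.28, adjusted p = 0.0151) rose in the libraries labelled CDX2KO_BRAF, as did 6.6% of all tested genes. The Atf3 call ended without any one of the 5 libraries compared (adjusted p of up to 0.193), and that of Ier3 without CDX2KO_BRAF library 0 or 1 (0.0944 and 0.0924). The part of these genes in the Id differences was not tested.

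Levels of other cell types moved with some of these values. The 12 T cell markers, all of which passed the filter, summed to 9.64 and 54.9 FPKM in the libraries labelled CDX2KO_BRAF, 43.9, 143 and 400 in SMAD4KO_BRAF, and 28.9, 748 and 140 in BRAF. Within SMAD4KO_BRAF and within BRAF, the order of the libraries by Id2 was their order by T cell sum, with the highest Id2 of BRAF, 20.6, in the library with 748. The libraries labelled CDX2KO_BRAF had the highest Id2 and T cell sums within or below the range of the other groups. None of the 12 markers was called in any comparison, nor at an unadjusted p under 0.05 (limma), with medians of -1.69 in the libraries labelled CDX2KO_BRAF and -0.01 in SMAD4KO_BRAF, each against BRAF. The 12 mesenchymal markers summed to 4.70 and 19.6 in the libraries labelled CDX2KO_BRAF, 12.8, 38.8 and 48.9 in SMAD4KO_BRAF and 10.8, 117 and 29.2 in BRAF. The 8 B cell and myeloid markers summed to 3.57 and 11.9, to 11.8, 24.9 and 36.5, and to 8.01, 70.9 and 14.9 in those groups. The part of either in the Id2 values was not tested.

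**Figure D5:**
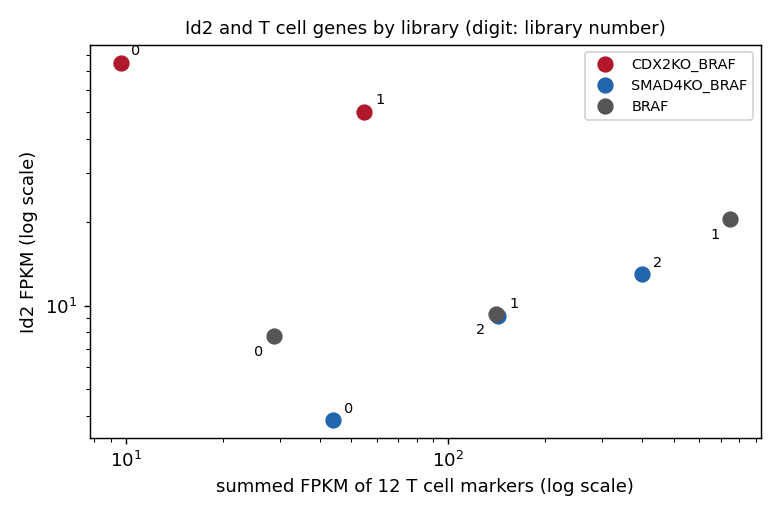
FPKM of Id2 against the summed FPKM of 12 T cell markers in each library, both axes on a log scale, coloured by group, with the library number as a digit. In SMAD4KO_BRAF and in BRAF the library with more T cell message has more Id2, while both libraries labelled CDX2KO_BRAF lie above all others in Id2 (75.4 and 50.1) at T cell sums of 9.64 and 54.9.

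Epithelial lineages moved as well. The 12 enterocyte markers had a median of -1.25 in SMAD4KO_BRAF against BRAF, with none called and 9 at an unadjusted p under 0.05, and of -2.40 in the libraries labelled CDX2KO_BRAF, with 8 fallen, among them the disaccharidase genes Sis (-6.94, limma's adjusted p = 0.000482) and Lct (-5.42, adjusted p = 0.00181). At an unadjusted p under 0.05 in SMAD4KO_BRAF against BRAF there were 15.1% of all tested genes. In the libraries labelled CDX2KO_BRAF against BRAF, 7.21% of them fell and 6.89% rose. Tuft cell markers summed to 34.2 and 79.5 FPKM in the libraries labelled CDX2KO_BRAF, 6.19, 2.34 and 7.51 in SMAD4KO_BRAF, and 6.04, 3.56 and 4.25 in BRAF, and the 4 tested of 6 rose in the libraries labelled CDX2KO_BRAF against BRAF, led by Avil (3.59, adjusted p = 0.00186). Without CDX2KO_BRAF library 1, Dclk1, Trpm5 and Pou2f3 had an adjusted p of 0.148, 0.154 and 0.0674, and leaving out BRAF library 1 or 2, or for Dclk1 also BRAF library 0, ended the calls of Dclk1 and Trpm5 (0.0566 to 0.0705). Between the 2 libraries labelled CDX2KO_BRAF, Id1, Id2 and Id3 were higher in library 0 and the tuft cell sum in library 1. An order of 2 libraries decides nothing, and the part of tuft cells in the Id differences was not tested.

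Of the other lineage lists, 10 crypt stem cell markers had medians of 0.53 in SMAD4KO_BRAF, with none called and 5 at an unadjusted p under 0.05, and 0.23 in the libraries labelled CDX2KO_BRAF, with 1 risen (Gkn3, 5.49, limma's adjusted p = 0.000482), and 8 Paneth cell markers had medians of 0.85, with none called and 2 at such a p, and -1.56, with 3 fallen (Lyz1, Defa3 and Itln1). Goblet cell markers (7) had medians of -0.16 and -0.15 with none called and 1 and 2 at such a p, and enteroendocrine markers (9) had medians of 0.31 with none called and 2 at such a p, and of -0.94 with 1 fallen (Chgb). The 7 general epithelial markers had medians of -0.18 with none called and 2 at such a p, and of 0.12 with 2 fallen (Krt20 and Vil1). Of all tested genes, 15.1% had such a p in SMAD4KO_BRAF against BRAF and 28.8% in the libraries labelled CDX2KO_BRAF against BRAF. In the latter comparison 6.89% of all tested genes rose and 7.21% fell. The goblet cell counts are close to these shares. The part of any of these lineages in the Id differences was not tested.

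No gene that flanks an Id gene was called. In the RefSeq gene order of the mouse (GRCm38.p6), the nearest tested genes are Mcts2 and Bcl2l1 beside Id1, Kidins220 and Rsad2 beside Id2, Rpl11 and E2f2 beside Id3, and Rnf144b and Zfp169 beside Id4. None of these 8 passed limma's adjusted threshold in any of the 3 comparisons. At an unadjusted p under 0.05 there were 3 in the libraries labelled CDX2KO_BRAF against SMAD4KO_BRAF (Bcl2l1, Rsad2 and Zfp169), 1 in those libraries against BRAF (Zfp169) and 0 in SMAD4KO_BRAF against BRAF, where the shares of all tested genes were 28.9%, 28.8% and 15.1%. Beside Id3, E2f2 had an FPKM of 21.2 and 16.02 in the libraries labelled CDX2KO_BRAF, 15.3, 15.2 and 17.4 in SMAD4KO_BRAF, and 14.2, 20.6 and 14.9 in BRAF, and its groups overlapped.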

How the data were processed

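The values are FPKM in 1 table deposited by the authors, from 50 bp single-end reads of TruSeq libraries, per the labels' protocols. TopHat2 2.1.0, Cuffnorm 2.2.1, Cuffdiff 2.2.1 and build mm9 are named in the submitters' processing notes; the program behind the table is not stated. Column numbers start at 0 and title numbers at 1, so columns were matched to groups only, and 3 further columns match no sample and were not used. No depth is given, so the spread between libraries is the only error.

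Of 23951 symbols, 5247 were at 0 in all 8 libraries. log2(FPKM + 1) of 12084 genes (2 or more libraries with an FPKM of 1 or more) was fitted in 1 model of 3 groups with limma 3.58.1 in R 4.3.3 with a mean-variance trend, adjusted by Benjamini-Hochberg per comparison, two-sided. Ratios between Id genes used exact permutation. In a simulation of the contrast between SMAD4KO_BRAF and BRAF with 12084 genes, 66% of changes of log2 1 and 89% of changes of log2 2 were found, and 5.45% of calls were false. It used independent normal noise and changed a fixed number of genes, none of them weakly expressed. Its rates are averages and do not hold for Id2 and Id4. Their standard errors were 0.47 and 0.45, beside medians of 0.203 at a mean FPKM of 1 to 5 and 0.149 at 20 to 100. Members, lists, tests and alternatives were chosen with earlier results of these data known. Named are the Id genes, the targeted genes, called members of pathway lists or up to 3 with the smallest adjusted p, called or defining cell type markers, and the 3 genes most like each Id gene. Alternatives were another pseudocount (0.1), filter, scaling, model or group set, sex as a term, a block for the column number, and leaving out each library. Tables and figures used Python 3.11.15, numpy 2.4.6, pandas 2.3.3 and matplotlib 3.10.9.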

Additional observations from a re-analysis of the deposited data

How the results depend on the processing

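Of the called Id differences, Id1 in both comparisons of the libraries labelled CDX2KO_BRAF and Id3 against SMAD4KO_BRAF passed under all 19 alternatives. The fall of Id3 in SMAD4KO_BRAF kept its direction but not its call with no filter (-2.01, adjusted p = 0.0742). Leaving out 1 library gave -2.17 to -1.91 there, 1.26 to 1.63 for Id3 against BRAF in the libraries labelled CDX2KO_BRAF, 2.03 to 2.72 and 2.38 to 3.15 for Id2 in those libraries against BRAF and against SMAD4KO_BRAF, and -1.05 to -0.51 for Id1 in SMAD4KO_BRAF, which passed with library weights (-0.86). Id2 against BRAF in the libraries labelled CDX2KO_BRAF was lost with no filter (2.32). Library weights turned Id2 in SMAD4KO_BRAF to 0.0552.

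Id4 changed sign most often, and at a minimum FPKM of 5 it was not tested because too few libraries reach it. In the libraries labelled CDX2KO_BRAF against BRAF it was at 0.0596 with library weights, 0.0016 with sex as a term and -0.91 to 0.71 leaving out 1 library. Against SMAD4KO_BRAF, leaving out 1 library gave -0.96 to 0.65, with 0.015 and 0.010 without SMAD4KO_BRAF library 0 or 2. In SMAD4KO_BRAF against BRAF it was at -0.0053 with quantile normalization and -0.11 to 0.38 leaving out 1 library. Smad6 in the libraries labelled CDX2KO_BRAF against BRAF ranged from -0.0271 to 1.55 leaving out 1 library.

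The 9 calls of SMAD4KO_BRAF against BRAF became 5 with no filter, 1069 with library weights and 78 with sex as a term, and 5 to 25 leaving out 1 library. The 1704 calls of the libraries labelled CDX2KO_BRAF against BRAF became 2602 with library weights and 493 to 1815 leaving out 1 library. The 1402 against SMAD4KO_BRAF became 2447 with library weights and 337 to 1397 leaving out 1 library. The cause of these moves was not tested. Of list medians under alternatives, 584 moved by less than the spread and 43 by more.

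Whether the column numbers pair the samples is not known. Same-numbered libraries of SMAD4KO_BRAF and BRAF deviated together with correlations of 0.241, -0.0474 and 0.0035 over genes. The first of these is the male pair. Deviations from a group mean must balance within each small group, so these values cannot settle the pairing. With the number as a replicate block there were 10, 1181 and 805 calls in the comparisons as ordered above, Id3 in SMAD4KO_BRAF was at -2.01 (adjusted p = 0.0694) and Id2 in the libraries labelled CDX2KO_BRAF against BRAF at 2.42 (adjusted p = 0.0554). Where 1 library is left in a group, it is assumed to vary like the others. Depth in reads is unknown, so no counting limit can be given.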
